A study of Mus musculus with 42 samples.

Results

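Lipocalins are small secreted proteins folded into a barrel that carries hydrophobic molecules. Those called odorant-binding proteins are released into nasal mucus and bind airborne odorants there, and in rodents they are made largely by glands of the nose. Major urinary proteins belong to the same family and are best known for carrying volatile pheromones in urine, although some are made in the nose. The genes described here are listed under 10 symbols, Lcn3, Lcn4, Lcn11, Lcn13, Lcn14, Obp1a, Obp1b, Obp2a, Obp2b and Mup4. These symbols stand for 8 of the 44674 genes in the table of counts, since RefSeq gives Lcn13 as another name of Obp2a and Lcn14 as another name of Obp2b. The genes were selected on values measured in these same libraries, namely their level in pulldown and input and the ratio of both in each pool across No Odour, NCD, Bacon and HFD. Their levels and all differences between odours are therefore given as a description. No p of these genes is reported, and nothing is read from how many of them passed a threshold.

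The libraries came from main olfactory epithelium of male C57BL/6NCrl mice, 8 to 12 weeks old, after 1 h without odour or with the odour of a diet. The diets were the chow NCD, Bacon (NCD with an artificial bacon flavour) and HFD, whose fat is pork lard. There were 5 pools without odour (numbered 1, 2, 3, 4 and 6), 6 with NCD, 5 with Bacon (1 to 5) and 5 with HFD (1, 2, 3, 5 and 6). Each of the 21 pools joined 4 epithelia, so that no value belongs to a single mouse, and all mice were males of a single strain. The input library of a pool holds RNA of the whole tissue, and the pulldown library holds RNA on ribosomes caught with an antibody against phosphorylated S6, a mark that activity raises in neurons. Neither is restricted to a cell type. Input libraries had 24839555 to 36781553 counts and pulldown libraries 25392812 to 36738330. Levels below are CPM, that is counts relative to the scaled size of the library. The ratio of pulldown to input within a pool is on the log2 scale with a prior count of 2, so that 0 means equal levels, and errors after a mean are SD over the pools of its group.

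The markers expected of this tissue were present. Omp, which marks mature sensory neurons, had input means of 7070 CPM without odour, 6470 with NCD, 5160 with Bacon and 5830 with HFD. Cyp2g1, an odorant-metabolizing enzyme of supporting cells, lay between 3490 and 4180 in the same means. Of 10 genes listed for vomeronasal neurons, Vmn2r7 had 17 counts in all 42 libraries together and H2-M10.1 had 15, and Trpc2 had input means of 0.706 to 1.19 CPM. The most abundant genes of that list, Gnao1, Gnai2 (87.7 to 108 CPM) and Meis2 (41.3 to 49.6), are not restricted to vomeronasal neurons, and the list summed to 426 to 586 CPM in the input libraries.

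Some libraries stood apart from their groups. Over 21168 genes, the median distance of a library from its group was 0.32 on the log2 scale for input 4 without odour, against 0.13 to 0.2 for the other inputs of that group. For pulldown 1 with Bacon it was 0.34, against 0.15 to 0.19 for the other Bacon pulldowns. That library also held more of the 8 supporting-cell markers, 5590 CPM in sum against 2270 to 3560 in the others. Pool 6 without odour lay within 0.2 over all genes, but it differed together with pool 4 in the genes described here. The 8 genes made up 0.388%, 0.354% and 0.407% of the input counts in pools 1, 2 and 3 without odour, and 0.207% and 0.155% in pools 4 and 6. In the pulldown the order was turned, with 0.101%, 0.11% and 0.11% in pools 1, 2 and 3 and 0.162% and 0.172% in pools 4 and 6. Ribosomal RNA varied along the same division in the pulldowns, at 28.3%, 28.5% and 26.8% of counts in pools 1, 2 and 3 and 21.2% and 14.6% in pools 4 and 6. In the inputs of these pools it was 27.1%, 32.2%, 27.8%, 31.6% and 21.7%, and in the other 32 libraries it lay between 9.75% and 21.9%. With this share in the model, the fitted differences of the ratio from no odour ran over the 8 genes from 1.89 to 3.1 with NCD, 1.95 to 3.04 with Bacon and 0.76 to 3.07 with HFD, against 1.87 to 3.02, 1.82 to 2.62 and 0.75 to 3.04 in the fit used below. In the inputs the share without odour was above that with an odour in all libraries but pool 6 without odour and HFD pool 6 (21.7% and 21.9%), so the part of the share and of the odour cannot be told apart there. Fitted differences of each gene's ratio from no odour are given below for all pools, without pools 4 and 6, and with only those pools.

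Pulldown relative to input was higher under each odour than without odour for all 8 genes. With NCD, 8 of 8 were past an adjusted p under 0.001 in edgeR's test over 21168 genes, in which 0.359% of all genes were higher. With Bacon 7 of 8 were past it, all but Obp1b, where 2.47% of all genes were higher. With HFD 6 of 8 were past it, all but Lcn3 and Lcn4, where 0.699% of all genes were higher. The genes were chosen by these ratios, so nothing is read from these counts. The median difference over the 8 genes was 2.43 (log2) with NCD, 2.06 with Bacon and 2.26 with HFD, and over all genes tested it was 0, 0 and -0.01. These 3 comparisons share the 5 pools without odour. Fitted on the groups compared alone, 4, 3 and 1 of the genes passed with NCD, Bacon and HFD, and 187, 26 and 37 of all genes in place of 111, 801 and 258 in either direction. With the ribosomal RNA share in the model 8 of 8 passed with Bacon, and 66 of all genes in place of 801.

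**Figure D1:**
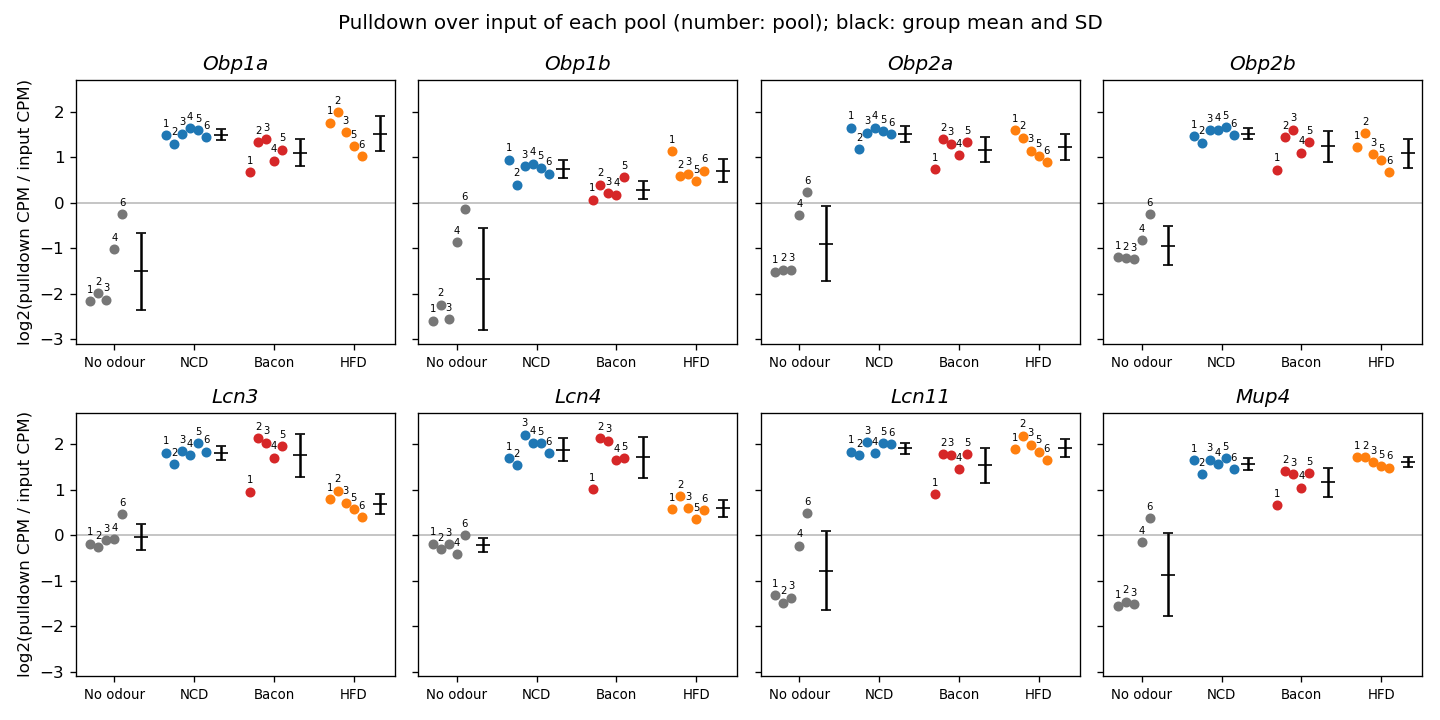
Log2 ratio of pulldown to input CPM of each pool (numbered points) for the 8 genes under No Odour, NCD, Bacon and HFD, with the mean and SD of each group in black. Pools 4 and 6 without odour lie above pools 1, 2 and 3 for 7 genes and not for Lcn4, and the lowest pool with an odour lies above the highest without for every gene but Lcn3 (0.40 against 0.46).

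Obp1a and Obp1b encode odorant-binding proteins of nasal mucus. Without odour the input held 379, 377, 419, 325 and 162 CPM of Obp1a in pools 1, 2, 3, 4 and 6, and the pulldown held 84.9, 95.3, 95.9, 160 and 136. With NCD the input ranged from 166 to 211 (median 186) and the pulldown from 450 to 577 (median 543) over 6 pools. With Bacon the input held 127, 133, 123, 153 and 146 and the pulldown 204, 333, 325, 292 and 328. With HFD the input was 320, 270, 344, 429 and 458 and the pulldown 1090, 1070, 1020, 1010 and 938. Every pulldown with an odour was thus above every pulldown without, while the inputs with Bacon were below all without odour and those with NCD below all but pool 6. The mean log2 ratio of Obp1a was -1.51 ± 0.84 without odour (n = 5), 1.5 ± 0.12 with NCD (n = 6), 1.1 ± 0.3 with Bacon (n = 5) and 1.52 ± 0.39 with HFD (n = 5). Against no odour this is a fitted difference of 3.02 ± 0.29 (SE), 2.62 ± 0.3 and 3.04 ± 0.3, or 8.09-fold, 6.14-fold and 8.2-fold. With pools 4 and 6 left out the differences were 3.56, 3.19 and 3.58, and with only those pools they were 2.14, 1.77 and 2.17.

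Obp1b, which lies in the same cluster on chromosome X, was the most abundant of the 8 genes per length of transcript, at 1840 CPM per kb over all inputs. Its input was 1830, 1710, 1930, 1170 and 775 CPM in the pools without odour and its pulldown 304, 363, 328, 643 and 707. With NCD the pulldown ranged from 1690 to 2020 (median 1920). Pulldowns with Bacon held 896, 1270, 1390, 1230 and 1420 CPM, and with HFD 3910, 3810, 3880, 3460 and 3480. All pulldowns with an odour were higher than all without, and those with HFD were the highest. The inputs with HFD, at 1770, 2550, 2500, 2490 and 2130, were above all those with Bacon (856 to 1210) and NCD (1030 to 1280). The mean log2 ratio therefore differed little between NCD (0.74 ± 0.2, n = 6) and HFD (0.71 ± 0.26, n = 5). It was 0.28 ± 0.2 with Bacon and -1.67 ± 1.12 without odour, the widest spread of any group of the 8 genes. The ratio without odour was -2.59, -2.24 and -2.56 in pools 1, 2 and 3, and -0.86 and -0.13 in pools 4 and 6. Fitted differences from no odour were 2.43, 1.98 and 2.4 with NCD, Bacon and HFD, 3.16, 2.74 and 3.15 without pools 4 and 6, and 1.24, 0.81 and 1.22 with only them. Most of the Obp1b transcript is shared with Gm14743, so the division of reads between these genes is an estimate and the level of each is uncertain.

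Obp2a and Obp2b, on chromosome 2, are the closest pair among the 8 genes in coding sequence. Under the name Lcn13, Obp2a has been studied as a circulating protein that affects glucose and lipid metabolism. The input of Obp2a without odour was 742, 785, 806, 361 and 215 CPM and the pulldown 260, 283, 290, 299 and 254. With NCD its pulldown ranged from 1000 to 1330 (median 1230), with Bacon it was 950, 1700, 1780, 1540 and 1820, and with HFD 2460, 2330, 2310, 2290 and 2110. Pulldowns without odour lay within a narrow range, whereas their inputs ran from 215 CPM in pool 6 to 806 in pool 3. The mean log2 ratio was -0.9 ± 0.83, 1.52 ± 0.17, 1.17 ± 0.27 and 1.22 ± 0.28 in the order No Odour, NCD, Bacon and HFD. Its differences from no odour of 2.42, 2.07 and 2.13 were 2.97, 2.65 and 2.69 without pools 4 and 6 and 1.54, 1.21 and 1.25 with only those pools.

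Obp2b without odour had 155, 155, 169, 46.1 and 26 CPM in the input and 67.6, 66.3, 71.5, 26 and 21.8 in the pulldown. Both library types were low in pools 4 and 6, so that the ratio varied less than that of Obp2a, from -1.24 to -0.25. With NCD its pulldown ranged from 198 to 260 (median 245). With Bacon it was 313, 549, 566, 484 and 577 and with HFD 499, 477, 477, 484 and 456. Apart from Bacon pool 1 the Bacon and HFD pulldowns overlapped, and all were above those with NCD. The mean log2 ratio was -0.95 ± 0.43, 1.52 ± 0.13, 1.25 ± 0.34 and 1.09 ± 0.32. Fitted differences from no odour were 2.48 ± 0.18 (SE), 2.21 ± 0.18 and 2.05 ± 0.18 for NCD, Bacon and HFD, 2.71, 2.47 and 2.29 without pools 4 and 6, and 2.07, 1.82 and 1.65 against pools 4 and 6 alone.

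Mup4 encodes a major urinary protein and was next to Obp2a in input level per length (735 against 882 CPM per kb over all inputs). Its input without odour was 1010, 1010, 1050, 562 and 352 CPM and its pulldown 344, 367, 365, 507 and 459. With NCD the pulldown ranged from 1190 to 1540 (median 1430), with Bacon it was 826, 1400, 1500, 1260 and 1480, and with HFD 2850, 2840, 2920, 2720 and 2750. The HFD pulldowns were above all others and the groups NCD and Bacon overlapped. Its mean log2 ratio was -0.86 ± 0.91, 1.56 ± 0.14, 1.17 ± 0.31 and 1.61 ± 0.11, and the fitted differences of 2.44, 2.04 and 2.49 were 3.04, 2.68 and 3.11 without pools 4 and 6 and 1.45, 1.08 and 1.52 with only those.

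Lcn11, which lies beside Lcn3, followed the same order. The input without odour was 113, 116, 115, 67 and 34.4 CPM and the pulldown 45.7, 41.4, 44.4, 57 and 48.1. With NCD the pulldown ranged from 157 to 216 (median 191), with Bacon it was 86.1, 163, 159, 133 and 156 and with HFD 353, 376, 365, 359 and 359. The HFD pulldowns were again above all others. The mean log2 ratio was -0.78 ± 0.87 without odour, 1.91 ± 0.13 with NCD, 1.54 ± 0.38 with Bacon and 1.91 ± 0.2 with HFD, so that NCD and HFD were at the same ratio on levels that differed 1.95-fold in the pulldown and 1.97-fold in the input. The differences from no odour, 2.71, 2.34 and 2.71, were 3.27, 2.93 and 3.27 without pools 4 and 6 and 1.8, 1.45 and 1.81 with only these 2 pools.

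Lcn3 and Lcn4, named vomeronasal secretory proteins when they were found, were the least abundant of the 8 genes per length (37.5 and 14 CPM per kb over all inputs) and had another order. The input of Lcn3 was 20.4, 21, 22.7, 9.09 and 5.23 CPM without odour and its pulldown 18.1, 17.5, 21.1, 8.62 and 7.2. With NCD the pulldown ranged from 75.4 to 103 (median 93.3). With Bacon it was 61, 132, 130, 110 and 134 and with HFD 48.5, 45.9, 49.5, 45 and 44.9. The HFD pulldowns lay between those without odour and those with NCD or Bacon, with no overlap. The input with HFD, at 27.9, 23.2, 29.9, 30.3 and 34, overlapped that with NCD (22.8 to 28.5) and Bacon (30 to 34.4). Mean log2 ratios of Lcn3 were -0.03 ± 0.28, 1.81 ± 0.15, 1.76 ± 0.47 and 0.69 ± 0.22. Its differences of 1.87, 1.82 and 0.75 from no odour were 1.96, 1.95 and 0.85 without pools 4 and 6 and 1.64, 1.62 and 0.53 with only them.

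For Lcn4 the input was 8.54, 9.27, 7.63, 4.32 and 3.27 CPM without odour and the pulldown 7.52, 7.53, 6.7, 3.22 and 3.27. The pulldown ranged from 30.6 to 41.4 (median 38) with NCD. It was 27.6, 53.7, 58.7, 47.2 and 55.1 with Bacon and 18.7, 18.2, 19.5, 17.3 and 18.5 with HFD. As for Lcn3, each HFD pulldown lay above all without odour and below all with NCD or Bacon. The log2 ratio was -0.22 ± 0.16 without odour, with no gap between pools 1, 2 and 3 (-0.3 to -0.18) and pools 4 and 6 (-0.42 and 0). It was 1.89 ± 0.25 with NCD, 1.71 ± 0.45 with Bacon and 0.59 ± 0.18 with HFD. Fitted differences of Lcn4 from no odour, 2.11 ± 0.17 (SE), 1.94 ± 0.17 and 0.81 ± 0.18, were 2.08, 1.94 and 0.79 without pools 4 and 6 and 2.1, 1.96 and 0.82 with only those pools.

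**Figure D2:**
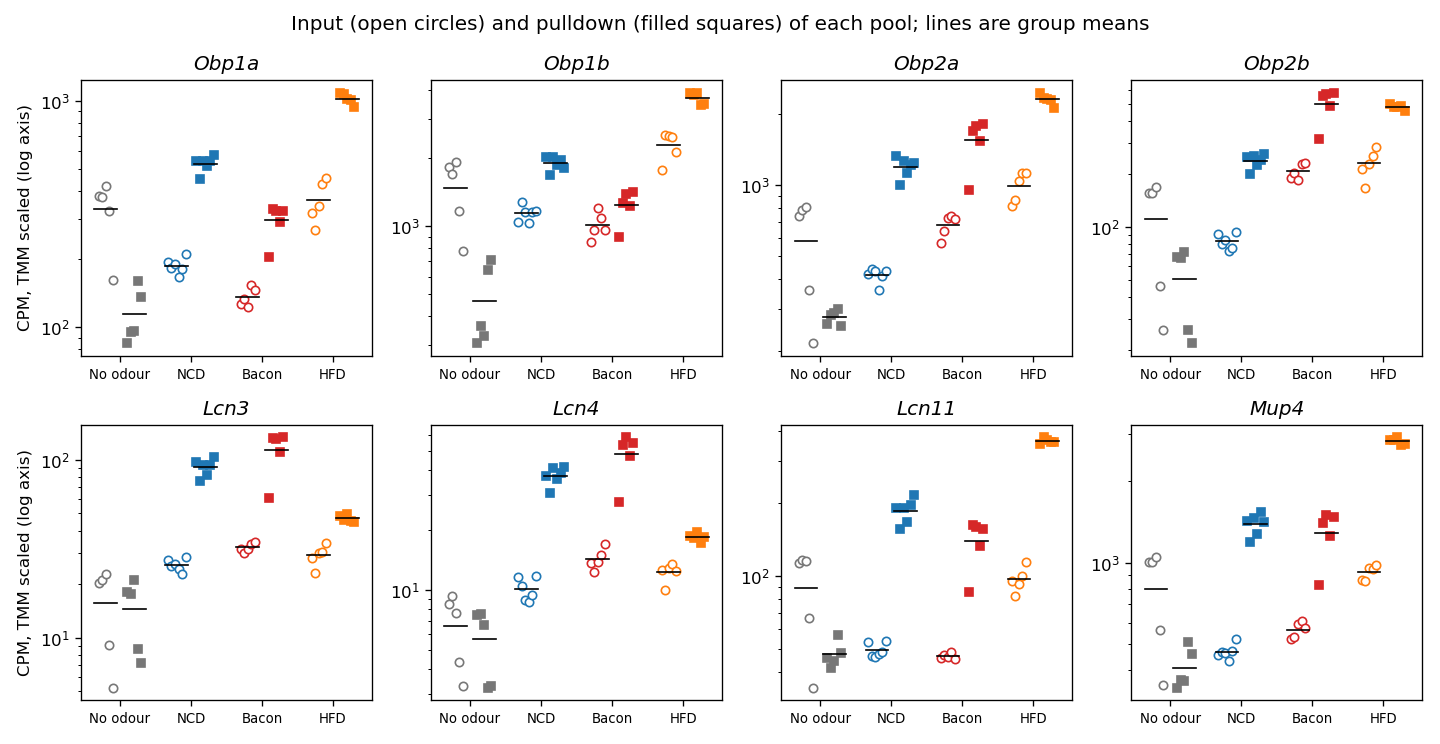
Input (open circles) and pulldown (filled squares) CPM of each pool on a log axis for the 8 genes under No Odour, NCD, Bacon and HFD, with lines at the group means. Pulldown means with HFD are highest for Lcn11, Obp1a, Obp1b, Obp2a and Mup4, while for Lcn3 and Lcn4 they lie below those with NCD and Bacon (46.7 and 18.5 CPM).

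Between odours, the ratio was lower with HFD than with the other odours for Lcn3 and Lcn4. The difference was -1.13 ± 0.16 (SE, log2) against Bacon and -1.3 ± 0.15 against NCD for Lcn4, and -1.07 ± 0.17 and -1.12 ± 0.16 for Lcn3. In either comparison Lcn4 alone of the 8 genes was past the threshold, where 0.0378% of all genes were lower against Bacon and 0.0189% against NCD. Nothing is read from these counts of a gene chosen by these values, and DESeq2 gave 2 genes in both (20 and 16 of all genes). Against Bacon the count was 0 without pool 1 or 4 of no odour, pool 6 of NCD, pool 2, 3, 4 or 5 of Bacon, or pool 1, 3, 5 or 6 of HFD (4 to 9 of all genes), and 2 without Bacon pool 1 (15 of all genes). Against NCD it was 2 without pool 6 of no odour or without Bacon pool 1 or 2 (7, 9 and 7 of all genes). The median difference over the 8 genes was 0.21 between HFD and Bacon (-0.02 over all genes) and -0.16 between HFD and NCD (-0.01). Between Bacon and NCD none of the 8 passed in edgeR's test, at a background of 0.00945% in either direction, with 0 at an unadjusted p under 0.05 and 0 in DESeq2. Counts at an unadjusted p, here and below, stand without the share of all genes at that level, and nothing is read from them. The 8 differences between Bacon and NCD ran from -0.45 for Obp1b to -0.05 for Lcn3, and the ratio of Bacon pool 1 was the lowest of its group for every gene. With that pool left out the Bacon means were 1.96 for Lcn3, 1.89 for Lcn4, 1.7 for Lcn11, 1.21 for Obp1a, 0.34 for Obp1b, 1.27 for Obp2a, 1.37 for Obp2b and 1.29 for Mup4.

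Without odour the pulldown held less of most of these genes than the input. The fitted log2 difference of pulldown from input was -1.69 ± 0.27 (SE) for Obp1b, -1.52 ± 0.22 for Obp1a, -0.96 ± 0.13 for Obp2b, -0.91 ± 0.2 for Obp2a, -0.87 ± 0.21 for Mup4 and -0.79 ± 0.21 for Lcn11. Lcn4 (-0.22) and Lcn3 (-0.05) were near equal in both. Past the threshold were 4 of 8, all lower (Obp1a, Obp1b, Obp2a and Obp2b), where 16% of all genes were lower and 19.8% higher, and nothing is read from this count. In pools 4 and 6 alone 0 of 8 passed (2941 of all genes in place of 7573), and the differences there were -0.64 for Obp1a, -0.5 for Obp1b, -0.02 for Obp2a and 0.12 for Lcn11. In pools 1, 2 and 3 they were -2.11, -2.48, -1.51 and -1.4. Over all 5 pools, 8 of 8 supporting-cell markers were lower in the pulldown, 7 of 11 sensory-neuron markers and 5 of 5 erythroid genes were higher, and of 17 nasal gland genes 6 were lower and 1 was higher.

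In the input alone, which does not depend on the antibody, the odours differed in another way. In whole tissue fewer cells that make a transcript and less of it per cell cannot be told apart. HFD had 2.01-fold the input level of NCD for Obp1b, 1.95-fold for Obp1a, 2.38-fold for Obp2a, 2.77-fold for Obp2b, 1.97-fold for Lcn11 and 1.97-fold for Mup4. For these 6 genes every HFD input was above every NCD input, and Lcn3 (1.13-fold) and Lcn4 (1.21-fold) overlapped. Against Bacon, HFD was 2.67-fold higher for Obp1a, 2.25-fold for Obp1b, 2.08-fold for Lcn11, 1.63-fold for Mup4 and 1.46-fold for Obp2a, again with no overlap. Obp2b (1.11-fold), Lcn3 (0.903 times) and Lcn4 (0.857 times) overlapped. Bacon had 2.5-fold the Obp2b and 1.63-fold the Obp2a of NCD but 0.729 times the Obp1a. The orders of the input means were therefore HFD, No Odour, NCD, Bacon for Obp1a and Obp1b, and HFD, Bacon, No Odour, NCD for Obp2a and Obp2b. For Lcn11 the order was HFD, No Odour, NCD, Bacon, for Mup4 it was HFD, No Odour, Bacon, NCD, and for Lcn3 and Lcn4 it was Bacon, HFD, NCD, No Odour. The 5 inputs without odour spread most widely, with an SD of 101 CPM for Obp1a, 493 for Obp1b, 274 for Obp2a, 68.2 for Obp2b, 36.8 for Lcn11 and 320 for Mup4. The gap to the mean of No Odour was within that SD for HFD in Obp1a, NCD and Bacon in Obp1b, NCD and Bacon in Obp2a, NCD in Obp2b, HFD in Lcn11, and HFD and Bacon in Mup4. The place of No Odour in these orders depends on pools 4 and 6, since in pools 1, 2 and 3 each input of Obp1a, Lcn11 and Mup4 was above the HFD mean (364, 96.7 and 921 CPM) and each of Obp2a above the Bacon mean (679).

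Numbers of the 8 genes past the threshold in the input differed with the pools without odour that were used. None was past it for NCD against no odour, where 0.998% of all genes differed, with 6 at an unadjusted p under 0.05 and 2 in DESeq2 (1249 of all genes). With pool 6 left out 3 passed, and with pools 4 and 6 left out 6, while of all genes 814 and 621 passed in place of 204. Against no odour, Bacon gave 2 (Lcn4 higher, Obp1a lower; 13.7% of all genes) and 6 without pool 6, with 2812 and 3578 of all genes. HFD against no odour gave 0 (0.963% of all genes, 5 at an unadjusted p under 0.05, 1 in DESeq2), and 6 against pools 4 and 6 alone, with 197 and 82 of all genes. Between odours the count was 1 for HFD against Bacon (Obp1a higher; 0.0831% of all genes) and 0 for HFD against NCD (0.0538%; 6 at an unadjusted p under 0.05, 4 in DESeq2). It was also 0 for Bacon against NCD (0.108%; 4 and 0). All groups share an estimate of the spread, so the pools without odour enter here too, and without pool 6 of no odour the counts were 3 for HFD against Bacon (22 of all genes in place of 17) and 5 for HFD against NCD (23 in place of 11). Left out singly, pool 4 of no odour, any pool of Bacon, or pool 3, 5 or 6 of HFD brought the first of these to 0 (12 to 40 of all genes), and pool 3 of no odour to 2 (18). Nothing is read from any of these counts, since input levels were among the values that chose the genes. The shares given are those at the adjusted threshold and do not apply to the counts at an unadjusted p.

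For the lipocalin genes outside this selection, the adjusted p of edgeR is given. Their list was made with earlier results of these data known, and Gm14743 and Mup5 share sequence with Obp1b and Mup4. These p-values are therefore no independent support for the genes described here. Of 47 listed, 38 are in the table and 11 passed the filter on low counts, while 21 had under 1 count per library. Gm14743, Gm14744 and Mup5 had a higher ratio with each odour, 3 of 11 where 0.359% of all genes were higher with NCD, 2.47% with Bacon and 0.699% with HFD. At an unadjusted p under 0.05 there were 8, 6 and 8 of the 11 in either direction. Counts at this level, here and below, stand without the share of all genes, and nothing is read from them. For Mup5 the log2 ratio without odour was -1.61, -1.45, -1.54, -0.39 and 0.09 in pools 1, 2, 3, 4 and 6. It ranged from 1.43 to 1.66 (median 1.58) with NCD, was 0.71, 1.41, 1.48, 1.1 and 1.34 with Bacon and 1.62, 1.99, 1.8, 1.62 and 1.53 with HFD. All 16 pools with an odour were thus above all 5 without. The pulldown of Mup5 was 67.4, 72.7, 71.2, 70.3 and 54.1 CPM without odour, 163 to 203 with NCD, 45.1, 71.3, 71.5, 61.2 and 74.5 with Bacon and 271 to 283 with HFD. With Bacon its pulldown mean was thus 0.964 times that without odour and its input mean 0.182 times, so that the higher ratio there goes with a lower input and not with a higher pulldown. In edgeR the difference of Mup5 from no odour was 2.55 ± 0.25 (SE, adjusted p = 4.21e-06) with NCD, 2.2 ± 0.26 (adjusted p = 4.12e-05) with Bacon and 2.71 ± 0.26 (adjusted p = 2.83e-06) with HFD. Without pools 4 and 6 of no odour its differences were 3.06, 2.75 and 3.23, and with only those pools 1.71, 1.39 and 1.89. Fitted on the compared groups alone its adjusted p was 0.00112, 0.00472 and 0.00269.

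Gm14744, for which RefSeq lists odorant-binding names, had edgeR differences of 2.54 ± 0.31 (adjusted p = 9.26e-05), 2.13 ± 0.32 (adjusted p = 0.000255) and 2.58 ± 0.32 (adjusted p = 8.12e-05) for NCD, Bacon and HFD. Those of Gm14743 were 2.61 ± 0.33 (adjusted p = 0.000158), 2.32 ± 0.35 (adjusted p = 0.000248) and 2.67 ± 0.34 (adjusted p = 0.000116). Both genes were higher in all 16 pools with an odour than in any without. With only pools 4 and 6 of no odour, Gm14744 stood at 1.5, 1.11 and 1.55, of which the value with Bacon did not pass (adjusted p = 0.00127), and Gm14743 at 1.49, 1.23 and 1.57. Their calls with Bacon were lost without Bacon pool 2 (adjusted p 0.00126 for Gm14744 and 0.00107 for Gm14743), 3 (0.00129 and 0.00106) or 5 (0.00102 for both), and all 6 calls of both genes were lost in fits on the compared groups alone or when replicate numbers entered the model, at adjusted p of 0.00119 to 0.0135. Gm14743 shares most of its sequence with Obp1b and Gm14744 with 5430402E10Rik, and Mup5 shares part of its own with Mup4. The tests of Gm14743 and Mup5 are therefore not independent of the genes that were selected. The gene that shares with Gm14744 is not among the selected ones, but the division of reads between these copies is an estimate too. The other 8 lipocalins tested did not pass with any odour. Lcn2, Apod and Ptgds were at differences of -0.58 to -0.17, while Mup6 was at 1.71, 1.28 and 1.87 with NCD, Bacon and HFD, Lcn12 at 0.89, 1.02 and 0.93, C8g at 0.78, 0.77 and 0.66, Rbp4 at -0.46, 0.39 and -0.46 and Orm2 at -0.03, -0.67 and -0.9. Without pool 4 of no odour Lcn2 (-0.6, adjusted p = 0.000548) and Ptgds (-0.71, adjusted p = 0.000265) passed with NCD as well. No tested lipocalin outside the selection passed between odours in edgeR or DESeq2, with 0, 0 and 2 at an unadjusted p under 0.05 for HFD against Bacon, HFD against NCD and Bacon against NCD.

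Pulldown against input without odour, 5 of these 11 genes passed, in a comparison in which 35.8% of all genes did, so nothing is read from the count. Lcn2, which binds bacterial siderophores, was higher in the pulldown by 0.71 ± 0.08 (SE, adjusted p = 8.46e-08, edgeR). Gm14743 (-2 ± 0.26, adjusted p = 2.44e-06), Gm14744 (-1.19 ± 0.23, adjusted p = 0.000253), Mup5 (-0.99 ± 0.18, adjusted p = 0.000131) and Apod (-0.97 ± 0.14, adjusted p = 6.87e-06), a carrier of arachidonic acid and other small lipids, were lower. With pool 1 left out 3 of them passed (6270 of all genes in place of 7573), as Gm14744 (-0.99, adjusted p = 0.00233) and Mup5 (-0.83, adjusted p = 0.00129) did not, and Gm14744 also failed without pool 2 (0.00187) or 3 (0.00189) and Mup5 without pool 3 (0.00103). Ptgds (-0.4, adjusted p = 0.0027) passed without pool 2 (0.000984) or 3 (0.000879). In pools 4 and 6 alone Gm14744 stood at -0.14 and Mup5 at -0.16. Fitted on the compared groups alone, 2 of the 11 genes passed in place of 5 (4735 of all genes in place of 7573).

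In the input, Mup5 was lower with Bacon (25.6 to 29.3 CPM) than without odour (206, 198, 208, 92.1 and 50.8) in all pools, at a difference of -2.46 ± 0.28 (SE, log2; adjusted p = 1.71e-05, edgeR), in a comparison in which 8.34% of all genes were lower. Gm14743 was lower as well (-1.06 ± 0.18, adjusted p = 0.000188), at 33.8, 35, 41, 42.7 and 39.1 CPM against 101, 94.8, 96.7, 67.2 and 40.1, of which pool 6 overlapped the Bacon inputs. Ptgds, which makes prostaglandin D2, was at -0.51 ± 0.11 (adjusted p = 0.000589). The call of Ptgds was lost without pool 2, 3 or 4 of no odour or without any pool of Bacon, at adjusted p of 0.00101 to 0.0026. Fitted on the compared groups alone, 0 of the 11 lipocalins passed with Bacon (758 of all genes in place of 2812). With replicate numbers in the model 2 of them passed (1501 of all genes). With the ribosomal RNA share of the input as a covariate the count for Bacon went from 3 to 0 and that of all genes from 2812 to 7. Mup5 stood at -1.65 (adjusted p = 0.361), Gm14743 at -1.1 (adjusted p = 0.388) and Ptgds at 0.18 (adjusted p = 0.69). Gm14744 joined the lower genes without pool 6 of no odour (-0.87, adjusted p = 9.73e-05). With HFD, Gm14743 was at 82.1, 126, 128, 113 and 103 CPM, above all inputs with NCD (39 to 43) and Bacon. It was higher by 1.43 ± 0.17 against NCD (adjusted p = 0.000167) and 1.53 ± 0.18 against Bacon (adjusted p = 0.000113), and the first call was lost without HFD pool 2 (1.38, adjusted p = 0.00108). Left out singly, pool 4 of no odour added Lcn2 to these comparisons (adjusted p = 3.94e-05 and 0.000252), and pool 6 added Gm14744 against NCD (adjusted p = 9.54e-05) and Mup5 against Bacon (adjusted p = 7.39e-06). For NCD and for HFD against no odour 0 of 11 passed in edgeR, with 5 and 5 at an unadjusted p under 0.05 and 3 and 0 in DESeq2. Without pool 6 of no odour 3 and 1 passed (814 and 693 of all genes in place of 204 and 197), namely Gm14743, Gm14744 and Mup5 with NCD (-1.13, -1 and -1.46) and Mup5 with HFD (-1.06). Bacon against NCD gave 0, with 2 at an unadjusted p under 0.05 and 1 in DESeq2, and 1 (Mup5, -1.22) without pool 6 of no odour (25 of all genes in place of 22).

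Genes listed for nasal glands differed in both directions. Of 20 listed, 17 were tested, and in edgeR the ratio was higher for 5 and lower for 1 with NCD (0.359% and 0.165% of all genes), 6 and 1 with Bacon (2.47% and 1.32%), and 5 and 1 with HFD (0.699% and 0.52%). The median difference of the list was 0.19, 0.13 and 0.39. Higher with each odour were Bpifb5, Bpifb9a, Bpifb9b, Pip (2.15, 2.37 and 2.46) and Dmbt1 (1.67, 1.62 and 0.92), with Bacon also Scgb2b27 (1.67, 2.29 and 1.66), and lower was Bpifb3. Bpifb9b, the most abundant, had pulldown means of 3450 CPM without odour, 10200 with NCD, 16400 with Bacon and 13600 with HFD. Those of Bpifb3 were 1650, 654, 728 and 584, and the mucin Muc5b was at 3750, 2810, 3220 and 3260. Sox9, a transcription factor of gland cells, had pulldown means of 42.2, 37.7, 37.3 and 37.9, and the salivary genes Smgc and Prol1 were near 0, with 2 and 12 counts in all 42 libraries. The list summed to 20300, 20000, 21200, 12400 and 10900 CPM in the inputs without odour, lower in pools 4 and 6, and to 11500, 12300, 12500, 9330 and 9190 in the pulldowns. With NCD the sum was 12400 to 13400 (median 12800) in the inputs and 17100 to 19300 (median 18400) in the pulldowns. With Bacon it was 17600, 17800, 20500, 21200 and 19200 in the inputs and 20700, 27000, 30900, 30800 and 29800 in the pulldowns. With HFD it was 15200, 14600, 15500, 16500 and 17000 in the inputs and 23600, 21500, 22300, 24400 and 25300 in the pulldowns. These sums are mostly of Bpif genes. Without them, what remains is mostly Muc5b, and it summed to 1830, 1770, 1780, 914 and 1870 CPM in the inputs without odour, so that pool 6 was not low. Its pulldown means were 3920 without odour, 3120 with NCD, 3570 with Bacon and 3570 with HFD. The part of gland content in the values of the lipocalins was not tested. For the respiratory list, 9 of 10 genes were tested and 0 passed with NCD, Bacon or HFD in edgeR, with 5, 5 and 6 at an unadjusted p under 0.05, and Scgb1a1 was near 0 (17 counts in all). It summed to 2070 to 4210 CPM in the inputs, most in input 4 without odour, and 989 to 1760 in the pulldowns, with Bpifa1 its most abundant gene. The 11 sensory-neuron markers summed to 17100, 16800, 17400, 20400 and 20300 CPM in the pulldowns without odour and to 18500 to 25500 in those with an odour. In edgeR 2 of them had a higher ratio with Bacon, and 0 passed with NCD or HFD, with 4 and 5 at an unadjusted p under 0.05. Of 8 supporting-cell and 5 erythroid markers 0 passed with any odour, and 0 had an unadjusted p under 0.05.

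Within groups the 8 genes varied together in the input. Over 21 pools, taken as deviations from the mean of each odour, Pearson's r between pairs of genes ran from 0.69 to 0.99 with a median of 0.9 over 28 pairs. Over the 16 pools with an odour it ran from -0.23 to 0.96 with a median of 0.64, and Obp1b had an r of -0.09 with Lcn3, -0.02 with Lcn4, 0.01 with Obp1a, -0.1 with Obp2b, -0.23 with Lcn11, 0.6 with Obp2a and 0.52 with Mup4. For the log2 ratio r ran from 0.17 (Lcn4 with Obp1b) to 0.97, with a median of 0.84. The pairs share libraries and their scaling, and r is given as a description. Spread between pools of a group was high for the inputs of all 8 genes, with an SD on the log2 scale of 0.31 for Obp1b to 0.63 for Obp2b. Among 16304 genes these are the percentiles 90.2 to 99.2, and the median of all genes was 0.16. In the pools with an odour the SD was 0.09 (Mup4) to 0.2 (Obp1a and Obp2b), at percentiles 22.9 to 74.9.

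The genes that varied most like the mean of the 8 in the input, by Pearson's r over 21 pools among 16296 genes, were Bpifb9a (0.991), Gm14744 (0.976), 5430401F13Rik (0.975), Gm6619 (0.971), Mup5 (0.97), Odam (0.965), Bpifb9b (0.963), Bpifb5 (0.961), Pip (0.96) and Cabs1 (0.956). By the log2 ratio they were Gm6619 (0.969), Gm14744 (0.968), 5430401F13Rik (0.965), Bpifb9a (0.963), Cabs1 (0.961), Mup5 (0.95), 5430402E10Rik (0.938), 2310057J18Rik (0.935), Odam (0.934) and Bpifb9b (0.926). The lists have 8 genes of 10 in common, and 8 and 9 of the 10 were also found with Spearman's correlation. Without the pools of no odour the values of r in the input fell to 0.924 for Bpifb9a, 0.614 for Mup5 and 0.457 for Cabs1. Gm6619 lies within the span of 5430401F13Rik, so reads may be shared between them and both values are uncertain. Gm6619 had pulldown means of 39.7 CPM without odour and 149, 542 and 954 with NCD, Bacon and HFD.

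By position the genes fall into a cluster on each of chromosomes 2 and X. In GRCm38, Obp2a (chr2:25700043-25703326), Obp2b (chr2:25737009-25740097), Lcn3 (chr2:25765569-25768099) and Lcn11 (chr2:25777017-25780279) follow each other on the plus strand. They lie among other lipocalin genes in a span of 172 kb, and their identifiers are ENSMUSG00000062061, ENSMUSG00000079539, ENSMUSG00000026936 and ENSMUSG00000069080. Their neighbours on either side, Lcn5, Lcn6, Lcn10 and Lcn9, had 0 counts in all 42 libraries, and Lcn8 had 18. Lcn4 (ENSMUSG00000026919, chr2:26667674-26671282, minus strand) stands apart from them, and Mup4 (ENSMUSG00000041333, chr4:59956804-59960710, minus strand) lies at the edge of the major urinary protein genes. On chromosome X, Obp1a (ENSMUSG00000067684, chrX:78085505-78091374, minus strand) and Obp1b (ENSMUSG00000067679, chrX:78186777-78192292, plus strand) share 381 kb with Gm14744, 5430402E10Rik, Gm5938 and Gm14743. The genes 5430402E10Rik and Gm5938 were named after their values had been seen. 5430402E10Rik had input means of 412, 210, 212 and 419 CPM and pulldown means of 175, 506, 384 and 1120, in the order No Odour, NCD, Bacon and HFD. Gm5938 had input means of 0.139 to 0.37 CPM.

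**Figure D3:**
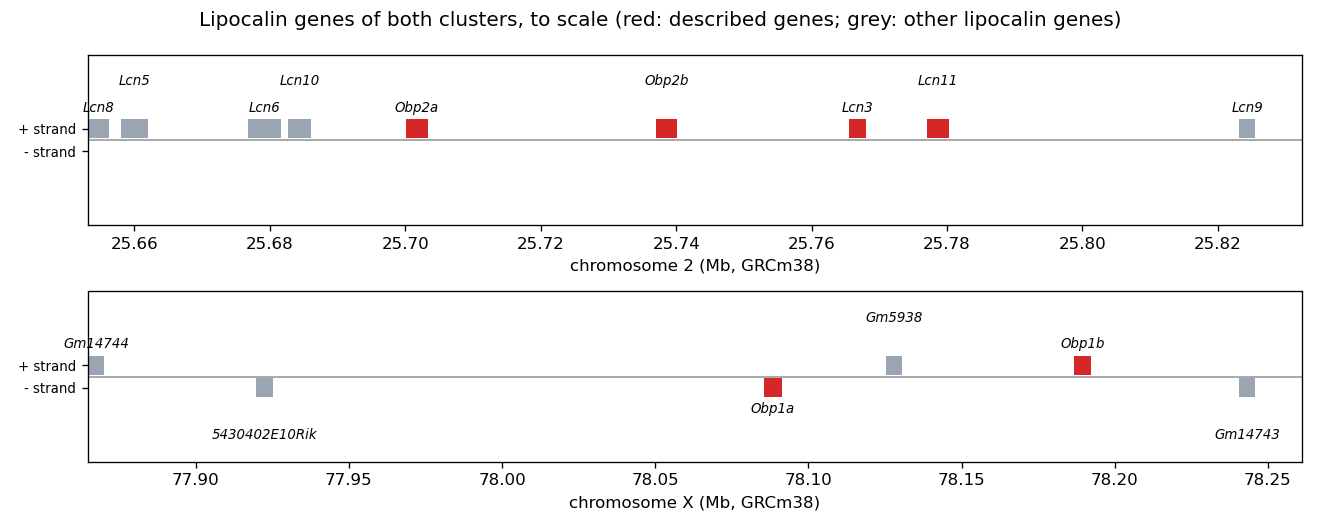
Positions on GRCm38 (Mb) and strands of the lipocalin genes in the clusters of chromosomes 2 and X, drawn to scale, with the genes described here in red and other lipocalin genes in grey. Obp2a, Obp2b, Lcn3 and Lcn11 are adjacent on the plus strand within 172 kb, and Obp1a and Obp1b lie within 381 kb.

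The coding sequences differ widely despite the common fold. Obp2a and Obp2b were identical at 75% of coding bases and Obp1a and Obp1b at 71.2%, while Lcn3 and Lcn4 shared 59.9%. Near-identical copies affect how reads are divided. Obp1b and Gm14743 were identical at 512 of 513 coding bases, and 80.7% of the words of 31 bases in the Obp1b transcript occur in another gene. Mup4 was identical to Mup5 at 92% and shared 38% of its words. The values were 90.6% for Obp1a and Gm5938, with 15.8% of words shared, and 98.7% for Gm14744 and 5430402E10Rik, with 83.2% shared. Obp2a shared 14% of its words, mainly with Obp2b, and Lcn3, Lcn4 and Lcn11 shared 0, so that reads of these last genes can be placed without such estimation.

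RefSeq promoters (GRCm38.p6, 300 bases, most of them before the start of the gene) were found for all 8 genes. TATAAA was searched on both strands and occurs in 6 of the 8, all but Lcn4 and Lcn11, and in 13.6% of 32851 promoters of this length. CCAAT occurs in 4 (37.4% of all), AGAACA in 2 (19%), CAGGTG in 2 (20.2%), and TGTTTAC or TGTTTGC in 0 (8.48%). These matches of letters describe the windows and were not tested as sites. The 50 bases around TATAAA are shown for the 5 genes in which both annotations place it before the start, to show which of these promoters are alike. Capitals mark TATAAA. The windows of Obp2a and Obp2b are identical at 49 of 50 bases and those of Obp1a and Obp1b at 37, while Lcn3 matches Obp2a at 22 and Obp1a at 15. They were read 5′ to 3′ on the strand of the gene, at chr2:25699989-25700038 and chr2:25736955-25737004 (plus) for Obp2a and Obp2b, chr2:25765480-25765529 (plus) for Lcn3, chrX:78091379-78091428 (minus) for Obp1a and chrX:78186723-78186772 (plus) for Obp1b.
Obp2a: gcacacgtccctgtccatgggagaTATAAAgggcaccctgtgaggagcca
Obp2b: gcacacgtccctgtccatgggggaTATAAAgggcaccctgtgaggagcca
Lcn3: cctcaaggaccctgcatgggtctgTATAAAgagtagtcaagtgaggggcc
Obp1a: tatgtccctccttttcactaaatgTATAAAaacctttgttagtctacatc
Obp1b: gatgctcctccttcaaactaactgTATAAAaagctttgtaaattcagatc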

How the data were processed

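RNA from pS6 pulldown and from whole-tissue input of each pool was sequenced from Nextera XT libraries. The authors quantified reads with Salmon on GRCm38, and the deposited table holds the expected count of each gene that Salmon estimated, not normalized, where 30.9% of values are not whole. Here counts were rounded, genes with too few counts were removed (filterByExpr, minimum 10), and libraries were scaled by TMM. The robust quasi-likelihood test of edgeR 4.0.16 (limma 3.58.1, R 4.3.3) was fitted to all 42 libraries, each pool having its own term beside those of pulldown under each odour (21168 genes), and to the 21 inputs alone (20451 genes). P-values were adjusted over all genes (Benjamini-Hochberg) with a threshold of 0.001. DESeq2 1.42.0 was the other tool.

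Libraries were grouped by odour as labelled. Deviations of a pulldown from its group correlated little with its own input (median r 0.014) or with other inputs (-0.004), and pools of one number across odours did not pair (median r 0.02), so no comparison was paired across odours. Joining the pulldown and input of equal number into a pool rests on the labels and is not shown by these correlations. No pair of libraries within a group was a duplicate (90 pairs).

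The members and lists were chosen with earlier results of these data known. Lists were of other lipocalins and of sensory neurons, supporting cells, nasal glands, respiratory cells, vomeronasal neurons and erythroid cells. A rule written in advance named all 10 members, the most abundant 3 other lipocalins and those past the threshold (at most 5 per contrast), the most abundant gene and the defining genes near 0 of each list, and the 10 genes most like the members in each measure. Gm5938, 5430402E10Rik, Gnai2, Meis2, Mup6, Lcn12, C8g, Rbp4, Orm2, Dmbt1 and Scgb2b27 were named after their values were seen. Coding sequences are from GENCODE M21 and promoters from RefSeq.

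Alternatives were other size factors, DESeq2's test, a looser filter, fits on the compared groups, models without pools or with replicate numbers, ribosomal RNA share as a covariate, prior counts of 0.5 and 5, Spearman's correlation, and leaving out each pool. Leaving out pools 4 and 6, or pools 1, 2 and 3, without odour was chosen after seeing the data.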

Additional observations from a re-analysis of the deposited data

Results flagged for a closer look

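Of 96 groups of pools checked for a pool far from the others (gap to the nearest pool over the range of the group, Dixon's test), 4 held such a pool, and chance marks about 1 in 20 groups. The log2 ratio of Lcn3 in pool 6 without odour was 0.46, with the other pools between -0.26 and -0.08. The input of Lcn4 in HFD pool 2 was 9.98 CPM, with the others between 12.5 and 13.5. The input of Obp2a in NCD pool 4 was 362 CPM, with the others between 413 and 442. The log2 ratio of Obp2a in NCD pool 2 was 1.18, with the others between 1.51 and 1.65.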

How the results depend on the processing

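Levels rest on 5 or 6 pools per group and on estimated counts. Counting error is largest for Lcn4, the least abundant gene, and the division of reads is least certain for Obp1b. Fitted log2 differences were compared between the main fit and the alternatives, and the side of the threshold was followed only for lipocalins outside the 8 genes. Of these values 5072 kept their direction and any side followed or moved less than the spread, 174 moved more and 1 reversed. Outside the 8 genes, 48 came to pass the threshold and 53 no longer passed. Calls gained or lost among the 8 genes are not in this tally and appear only in the counts below. With DESeq2's size factors 8 of the 8 genes instead of 7 passed in the ratio for Bacon against no odour (821 of all genes in place of 801). They moved no other count of the 8 genes or of the other lipocalins. Counts below are of the 8 genes first and of the 11 other lipocalins second where both moved. Brackets give how many of all genes passed under the alternative and before. Nothing is read from the counts of the 8 genes, and the cause of a changed count was not tested.

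With DESeq2's test, the ratio gave 8 of the 8 genes instead of 7 for Bacon against no odour (1746, 801) and 8 instead of 6 for HFD (812, 258). It gave 2 instead of 1 for HFD against Bacon (20, 8) and for HFD against NCD (16, 5). For pulldown against input without odour it gave 6 and 6 instead of 4 and 5 (8267, 7573). In the input it gave 2 and 3 instead of 0 and 0 for NCD against no odour (1249, 204), 4 of the 8 instead of 2 for Bacon (4320, 2812) and 1 instead of 0 for HFD (1168, 197). Between odours it gave 2 and 2 instead of 1 and 1 for HFD against Bacon (41, 17), 4 and 2 instead of 0 and 1 for HFD against NCD (44, 11), and 1 other lipocalin instead of 0 for Bacon against NCD (126, 22). With no filter beyond 1 count, 0 of the 8 instead of 1 passed for HFD against Bacon in the input (16, 17). For pulldown against input without odour 3 instead of 4 passed (7354, 7573).

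Fitted on only the groups compared, the ratio gave 4 and 0 instead of 8 and 3 for NCD against no odour (187, 111), 3 and 0 instead of 7 and 3 for Bacon (26, 801) and 1 and 0 instead of 6 and 3 for HFD (37, 258). It gave 0 instead of 1 for HFD against Bacon (1, 8), 2 instead of 1 for HFD against NCD (10, 5), and 1 and 2 instead of 4 and 5 for pulldown against input without odour (4735, 7573). In the input this fit gave 1 and 0 instead of 2 and 3 for Bacon against no odour (758, 2812), 4 and 3 instead of 1 and 1 for HFD against Bacon (28, 17), 5 and 3 instead of 0 and 1 for HFD against NCD (31, 11), and 6 and 2 instead of 0 and 0 for Bacon against NCD (666, 22).

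With a replicate block, which pairs pools by number, the ratio gave 7 and 1 instead of 8 and 3 for NCD (53, 111). It gave 1 other lipocalin instead of 3 for Bacon (340, 801) and 4 and 1 instead of 6 and 3 for HFD (90, 258). For HFD against Bacon 0 of the 8 instead of 1 passed (7, 8). In the input the block gave 1 and 2 instead of 2 and 3 for Bacon against no odour (1501, 2812). It gave 0 of the 8 instead of 1 for HFD against Bacon (12, 17) and 0 other lipocalins instead of 1 for HFD against NCD (8, 11). With no block for the pool, 8 of the 8 instead of 7 passed in the ratio for Bacon against no odour (927, 801) and 5 instead of 6 for HFD (353, 258). For HFD against Bacon (7, 8) and for HFD against NCD (4, 5) 0 instead of 1 passed. For pulldown against input without odour 5 instead of 4 passed (7905, 7573).

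With the share of ribosomal RNA in the model, 8 of the 8 instead of 7 passed in the ratio for Bacon against no odour (66, 801). For HFD against Bacon 0 instead of 1 passed (5, 8). In the input 0 and 0 instead of 2 and 3 passed for Bacon against no odour (7, 2812) and 0 and 0 instead of 1 and 1 for HFD against Bacon (12, 17). The input difference of Ptgds with Bacon, -0.51, became 0.18.

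The next alternatives were chosen after seeing the data, because of the values of the 8 genes. Without pools 4 and 6 of no odour, 5 other lipocalins instead of 3 passed in the ratio for NCD (160, 111) and for HFD (263, 258). For Bacon 8 of the 8 instead of 7 passed (506, 801), and for pulldown against input without odour 6 instead of 4 (5991, 7573). In the input 6 and 3 instead of 0 and 0 passed for NCD against no odour (621, 204), 6 of the 8 instead of 2 for Bacon (2727, 2812), 1 other lipocalin instead of 0 for HFD (668, 197), 5 and 4 instead of 1 and 1 for HFD against Bacon (90, 17), 6 and 3 instead of 0 and 1 for HFD against NCD (46, 11), and 2 and 1 instead of 0 and 0 for Bacon against NCD (254, 22). Without pools 1, 2 and 3 of no odour, the ratio gave 7 of the 8 instead of 8 for NCD (26, 111) and 6 and 2 instead of 7 and 3 for Bacon (71, 801). It gave 0 of the 8 instead of 1 for HFD against Bacon (6, 8). For pulldown against input without odour 0 and 3 instead of 4 and 5 passed (2941, 7573). In the input 2 of the 8 instead of 0 passed for NCD (60, 204), 4 and 1 instead of 2 and 3 for Bacon (1086, 2812), 6 and 1 instead of 0 and 0 for HFD (82, 197), 4 and 3 instead of 1 and 1 for HFD against Bacon (25, 17), 5 and 2 instead of 0 and 1 for HFD against NCD (32, 11), and 1 and 1 instead of 0 and 0 for Bacon against NCD (42, 22).

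For leaving out each pool in turn, brackets give the range over all genes. The ratio gave 7 to 8 of the 8 genes and 3 to 5 other lipocalins for NCD against no odour (56 to 335), 7 to 8 and 1 to 3 for Bacon (235 to 1566), and 5 to 8 and 3 to 3 for HFD (96 to 522). It gave 0 to 2 of the 8 for HFD against Bacon (4 to 15), 1 to 2 for HFD against NCD (4 to 9), and 3 to 6 and 3 to 5 for pulldown against input without odour (6208 to 7881). No count moved in the ratio for Bacon against NCD, or for other lipocalins between odours. In the input the ranges were 0 to 3 and 0 to 3 for NCD against no odour (70 to 814), 2 to 6 and 2 to 4 for Bacon (1344 to 3578), 0 to 0 and 0 to 1 for HFD (70 to 693), 0 to 3 and 1 to 2 for HFD against Bacon (12 to 40), 0 to 5 and 0 to 2 for HFD against NCD (9 to 23), and 0 to 0 and 0 to 1 for Bacon against NCD (14 to 176).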
